A study of Homo sapiens with 4 samples.

Results

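Transcripts of 10 immediate-early transcription factor genes were examined in androgen-treated LNCaP prostate cancer cells given a KDM5 demethylase inhibitor. They were the nuclear receptor genes NR4A1, NR4A2 and NR4A3, the FOS family genes FOS, FOSB and FOSL2, the JUN family genes JUN, JUNB and JUND, and the zinc finger gene EGR1. These 10 genes, of 60675 annotated in the count files, were selected on the measured difference between CPI-455 and vehicle in the same 4 libraries. Their differences are therefore given as a description, without a p-value, and support nothing by themselves.

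LNCaP is a human prostate cancer line derived from a lymph node metastasis. Every culture received 1 nM R1881, a synthetic androgen, for 72 h with 0.1% ethanol, in phenol red-free medium with hormone-depleted serum. In 2 libraries R1881 was given with vehicle, and in the other 2 it was combined with 50 µM CPI-455, an inhibitor of the KDM5 family of histone H3 lysine 4 demethylases. CPI-455 was dissolved in DMSO at a final concentration that the sample labels give as below 0.01%. The study's methods name DMSO as the vehicle in the other cultures and give a higher concentration than the labels. All cultures were of 1 cell line at 1 time point and 1 dose, and no culture without R1881 was analysed here. The study's text calls the libraries biological replicates. Any standard error below is derived from a statistical model that shares estimates of variation across genes, and covers only variation among these libraries. It is not the spread between the replicates of a single gene.

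Immediate-early genes are transcribed within minutes of a growth factor, stress or hormone signal, without new protein synthesis. Their messages are mostly short-lived, and many of their products are transcription factors that switch on later genes. FOS and JUN proteins pair to form AP-1, which binds TGANTCA and related sites, EGR1 binds GC-rich sites, and NR4A proteins are orphan nuclear receptors that bind AAAGGTCA as monomers. In prostate cells, AP-1 proteins and EGR1 have long been studied in relation to growth and hormone response.

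The vehicle libraries held 19623553 and 20690819 counted fragments, and the CPI-455 libraries 9522920 and 5401588, so low counts are less precise with CPI-455. A count of 3 corresponded to 0.145 to 0.153 counts per 1000000 fragments (CPM) with vehicle and to 0.315 to 0.555 CPM with CPI-455. After the filter on low counts 17600 genes were tested, all 10 members among them. Summed over the 10 luminal prostate markers examined, the level was 961 and 886 CPM with vehicle and 387 and 444 CPM with CPI-455. The defining basal markers KRT5, KRT14 and TP63 reached at most 1.24 CPM in any library, and KRT5 was at 0 in all 4. In these bulk libraries, fewer cells that express a gene and less RNA per cell cannot be told apart.

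The promoters of the members differed in the sites they carry. RefSeq (GRCh38.p14) held an entry for 9 of the 10 genes, and NR4A2 had none. In the 250 bases before each start, 7 motifs were sought on both strands. These were the cyclic AMP response element (CRE) TGACGTCA, its core TGACGT, the AP-1 site TGANTCA, the AP-1 variant TGACATCA, the serum response element, the NR4A monomer site AAAGGTCA and the EGR site GCGNGGGCG. A full CRE also counts as a core on each strand. Matches are in capitals in the following sequences, each written 5′ to 3′ on the gene's strand. EGR1 is shown because it was the gene with the largest fall and the most varied set of sites. NR4A1 is shown because it was strongly higher with CPI-455 and the window printed holds no match. A second NR4A1 entry, at chr12:52037465-52037714, held no match either. It lies inside the gene model used for counting and is not shown. JUND is shown because its window holds the only full CRE while its level differed little.
EGR1, chr5:138465229-138465478, plus strand: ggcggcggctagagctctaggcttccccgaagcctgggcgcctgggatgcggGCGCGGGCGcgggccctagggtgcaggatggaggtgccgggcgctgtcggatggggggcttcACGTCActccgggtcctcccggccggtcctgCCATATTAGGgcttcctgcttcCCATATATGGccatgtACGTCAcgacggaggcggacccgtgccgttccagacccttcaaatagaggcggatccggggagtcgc
NR4A1, chr12:52022582-52022831, plus strand: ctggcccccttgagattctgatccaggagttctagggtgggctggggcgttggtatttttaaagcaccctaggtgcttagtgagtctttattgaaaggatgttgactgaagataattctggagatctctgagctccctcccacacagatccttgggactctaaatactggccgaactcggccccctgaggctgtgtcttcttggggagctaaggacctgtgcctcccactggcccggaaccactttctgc
JUND, chr19:18281623-18281872, minus strand: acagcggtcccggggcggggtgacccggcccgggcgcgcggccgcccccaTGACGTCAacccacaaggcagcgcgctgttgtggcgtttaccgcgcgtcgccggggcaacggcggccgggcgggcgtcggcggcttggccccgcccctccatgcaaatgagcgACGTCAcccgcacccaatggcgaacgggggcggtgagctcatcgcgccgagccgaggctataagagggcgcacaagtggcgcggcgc

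In EGR1, 2 serum response elements were found between 105 and 74 bases before the start, with CRE cores at 136 and 67 bases and an EGR site at 198 bases. The serum response element occurred in 1.16% of the 35116 promoters in RefSeq and the EGR site in 8.41%. The full CRE, present in 1.65% of promoters, was found in JUND at 200 bases before the start. CRE cores, present in 7.1% of promoters, occurred in 6 members (NR4A3, FOS, FOSB, FOSL2, JUND and EGR1). JUN carried TGACATCA, found in 2.37% of promoters, and neither TGANTCA nor AAAGGTCA occurred in any of the 9 genes (6.57% and 1.05% of promoters). The windows of JUN and FOS reach into the gene models used for counting, so only 30 and 28 bases around their matches are shown. Elements outside the windows, upstream or downstream, were not sought, so the absence of a match does not show that a gene lacks that element. A serum response element of FOS outside its window would not have been found. A match is a description of the letters and not evidence of binding.
JUN, chr1:58784096-58784125, minus strand: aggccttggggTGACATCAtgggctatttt
FOS, chr14:75278753-75278780, plus strand: ggttgagcccgTGACGTttacactcatt

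Across the 10 genes, NR4A1, NR4A2, FOS and JUN were called higher with CPI-455 and EGR1 and FOSL2 lower, and NR4A3, FOSB, JUNB and JUND were not called. A gene was called at a false discovery rate below 0.05 and at least a 2-fold difference, by edgeR (quasi-likelihood test, Benjamini-Hochberg adjustment over all genes tested). Of all genes, 21.0% were called higher and 21.3% lower, beside the 4 and 2 members. The groups did not overlap for 9 of the 10 members and for 81.9% of all genes, and since the members were chosen by this contrast nothing is read from these counts. The median log2 fold change, always given as CPI-455 over vehicle, was 0.66 for the members and -0.04 for all genes tested. These values set each gene against the rest of its own library and are not absolute amounts.

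**Figure D1:**
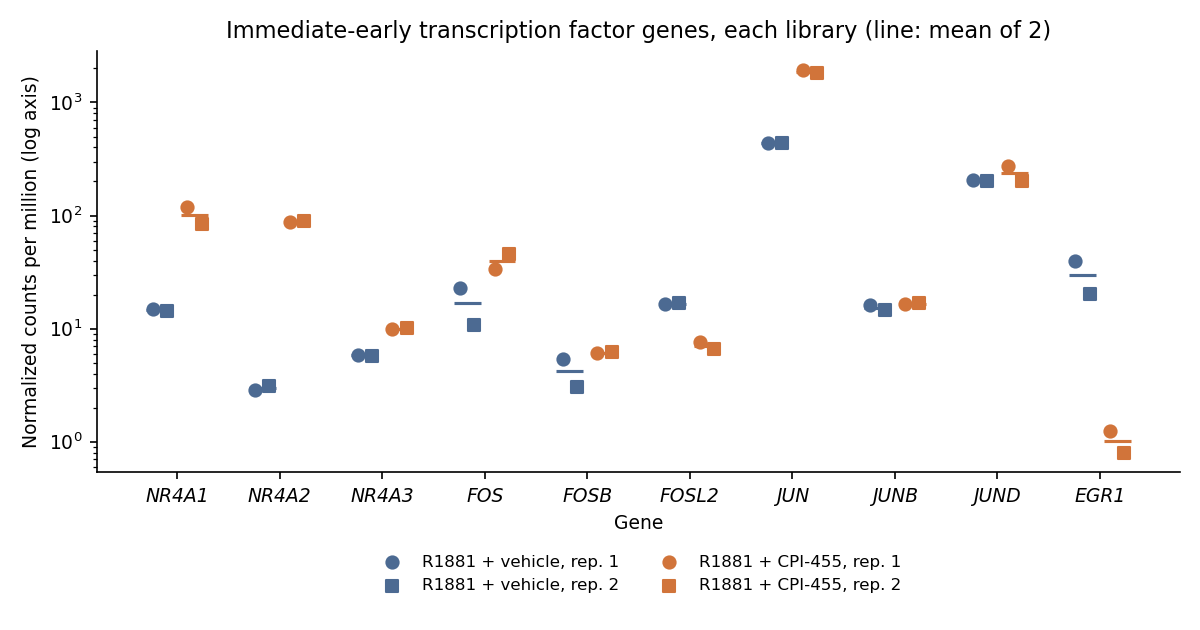
Normalized CPM (log axis) of each of the 10 genes in the 4 libraries, with blue points for R1881 + vehicle, orange points for R1881 + CPI-455, circles for replicate 1, squares for replicate 2 and a line at each mean of 2. NR4A1, NR4A2 and JUN separate upward and EGR1 downward by far more than the distance between replicates, whereas FOS, FOSB and EGR1 are spread apart in the vehicle libraries.

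NR4A1, also known as NUR77, encodes the founding member of the orphan receptor family and lies at chr12:52022832-52059507 (GRCh38, plus strand, 11 exon blocks). The vehicle libraries gave 14.9 and 14.2 normalized CPM (314 and 311 counts), and the CPI-455 libraries 119 and 83.9 CPM (1056 and 423 counts). Both CPI-455 libraries lay far above both vehicle libraries, and replicate 1 was the higher of the CPI-455 libraries. The mean was 14.6 ± 0.443 CPM with vehicle and 101 ± 24.7 CPM with CPI-455 (SD, n = 2), 7.0-fold higher, a log2 fold change of 2.81 (SE 0.19). Of its exon bases, 10.3% are shared with the antisense gene NR4A1AS, and fragments there were not counted for either gene.

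NR4A2, or NURR1, best known for its role in dopaminergic neurons, lies at chr2:156324432-156342348 (minus strand, 10 exon blocks). Its level was 2.89 and 3.11 CPM with vehicle (61 and 68 counts) and 87.5 and 90.2 CPM with CPI-455 (778 and 455 counts). Both CPI-455 libraries were far above both vehicle libraries, and the replicates were very close in each group. The rise was 29.5-fold (log2 fold change 4.88, SE 0.17), the largest of the 10 genes.

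NR4A3, or NOR1, at chr9:99821855-99866891 (plus strand, 9 exon blocks), differed less. It measured 5.87 and 5.77 CPM with vehicle (124 and 126 counts) and 9.90 and 10.1 CPM with CPI-455 (88 and 51 counts). The groups were separate and the replicates close, but the 1.72-fold difference (log2 fold change 0.78, SE 0.27) was under the 2-fold threshold. Once a trend on exon length and GC content was removed from each library the value was 1.16. With all libraries thinned to equal depth it was 1.02, and in both cases the gene was called higher. A call was made in 3 of 16 alternative settings. In the other 13 there was none, and the lowest value was 0.59, with library totals as the only scaling.

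Per kilobase of exon, the 3 NR4A genes together gave 3.70 and 3.65 RPKM with vehicle and 39.9 and 35.8 RPKM with CPI-455. The make-up of this sum shifted. NR4A2 provided 19.7% and 21.5% of it with vehicle and 55.3% and 63.5% with CPI-455, whereas NR4A3 went from 25.2% and 25.0% to 3.93% and 4.47%. By this measure NR4A1 led in both vehicle libraries and NR4A2 in both CPI-455 libraries. The lead of NR4A2 depends on the exon lengths used, 7295 bases for NR4A1 and 3967 for NR4A2. In CPM, without division by length, NR4A1 was above NR4A2 in CPI-455 replicate 1 (119 against 87.5). In CPI-455 replicate 2 it was below (83.9 against 90.2).

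**Figure D2:**
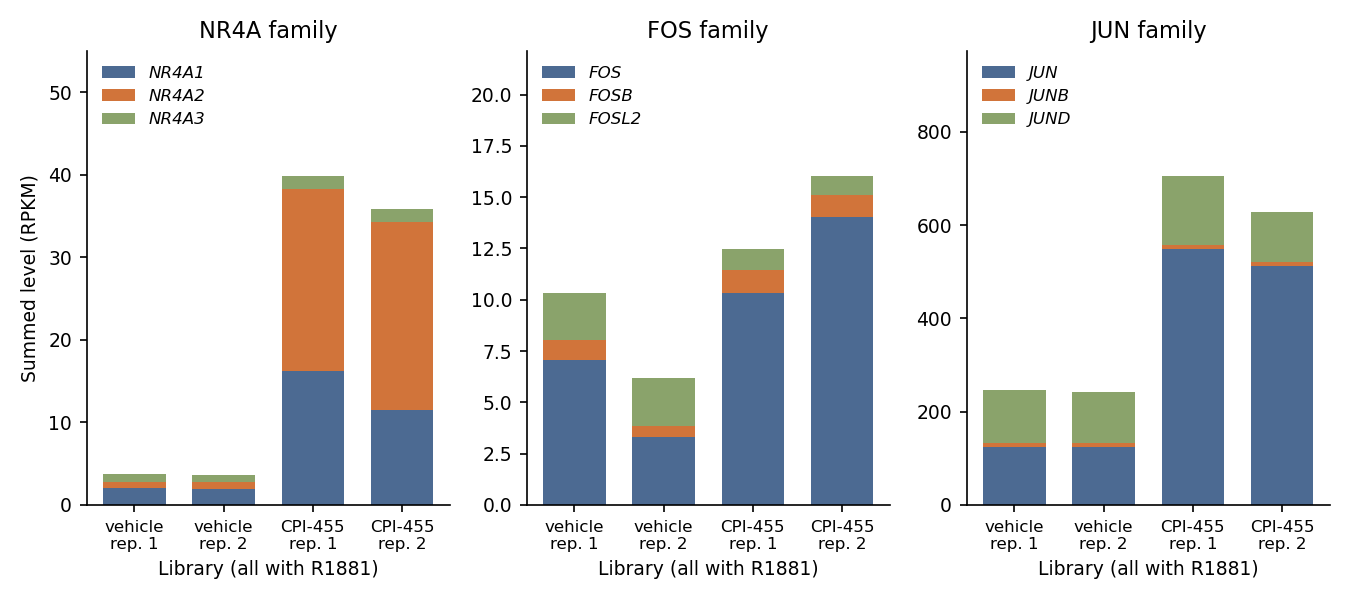
Summed level per kilobase (RPKM, linear axes that differ between panels) of the NR4A, FOS and JUN families in the 4 libraries, each bar divided by gene. With CPI-455 the NR4A bars reach 39.9 and 35.8 RPKM with NR4A2 as the largest section, and JUN fills most of the JUN bars.

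FOS, the prototype partner of JUN in AP-1, lies at chr14:75278774-75282230 (plus strand, 3 exon blocks). FOS was measured at 22.9 and 10.8 CPM in the vehicle libraries (484 and 235 counts), compared with 33.5 and 45.4 CPM after CPI-455 (298 and 229 counts). Both CPI-455 libraries were above both vehicle libraries, which themselves differed by a log2 ratio of 1.06, a gap larger than that of 99.8% of genes tested. The mean was 16.8 ± 8.59 CPM with vehicle and 39.5 ± 8.41 CPM with CPI-455 (SD, n = 2), 2.32-fold higher (log2 fold change 1.22, SE 0.32). This call rested on single libraries. Without vehicle replicate 2 the log2 fold change was 0.75, without CPI-455 replicate 2 it was 0.95, and in neither case was FOS called.

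FOSB, a close relative of FOS at chr19:45467995-45475179 (plus strand, 3 exon blocks), showed the same unevenness between the vehicle libraries. Its level was 5.35 and 3.02 CPM with vehicle (113 and 66 counts) and 6.07 and 6.15 CPM with CPI-455 (54 and 31 counts). The groups did not overlap, although vehicle replicate 1 came close to the CPI-455 libraries, and the log2 fold change of 0.55 (SE 0.38) was not called.

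FOSL2, or FRA2, encodes a FOS relative that lacks the strong activation domain of FOS and lies at chr2:28392448-28417312 (plus strand, 7 exon blocks). In contrast to FOS it was lower with CPI-455, at 7.53 and 6.54 CPM (67 and 33 counts) against 16.4 and 16.7 CPM with vehicle (347 and 364 counts). Both CPI-455 libraries were below both vehicle libraries, and the vehicle replicates were nearly equal. The level was 2.33-fold higher with vehicle (log2 fold change -1.22, SE 0.24). Within the summed RPKM of the 3 FOS genes, FOSL2 made up 22.2% and 37.6% in the vehicle libraries but 8.43% and 5.70% after CPI-455, and FOS 68.5% and 53.6% against 82.8% and 87.4%.

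JUN, the AP-1 subunit that pairs with FOS proteins or with itself, is an intronless gene at chr1:58780788-58784327 (minus strand, 1 exon block). With vehicle it had 9338 and 9662 counts, 442.1 and 442.4 CPM, and with CPI-455 17268 and 9133 counts, 1942 and 1811 CPM. Both CPI-455 libraries were far above both vehicle libraries, and per kilobase of exon JUN led the 10 genes in all 4. The rise was 4.24-fold (log2 fold change 2.09, SE 0.10), with the smallest standard error of the 10 genes. Between 1.90 and 2.26 was found over 16 alternative settings.

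JUNB, an AP-1 subunit often described as a weaker activator than JUN, lies at chr19:12791496-12793315 (plus strand, 1 exon block). Its level was 16.2 and 14.5 CPM with vehicle and 16.4 and 16.8 CPM with CPI-455. The 4 libraries were nearly level, and the log2 fold change of 0.11 (SE 0.20) was not called and changed sign in 4 of 16 alternative settings, over a range of -0.37 to 0.29. Of its exon bases, 14.2% are shared with HOOK2 on the other strand.

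JUND, the family member usually present without stimulation, is at chr19:18279760-18281622 (minus strand, 1 exon block). It measured 207.9 and 201.8 CPM with vehicle and 275.8 and 200.5 CPM with CPI-455. It was the only member whose groups overlapped, since CPI-455 replicate 2 was level with the vehicle libraries, and the log2 fold change was 0.22 (SE 0.15). It was not called, and its sign turned without CPI-455 replicate 1 (-0.05). The 3 JUN genes summed to 245 and 241 RPKM with vehicle and 706 and 628 RPKM with CPI-455. JUN supplied 50.9% and 51.8% of this sum with vehicle, and 77.7% and 81.4% with CPI-455, while the share of JUND went from 45.5% and 44.9% to 21.0% and 17.1%.

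EGR1 encodes a zinc finger factor that is rapidly induced by growth factors and is abundant in many prostate cancers. It lies at chr5:138465490-138469315 (plus strand, 2 exon blocks). The 829 and 446 counts with vehicle dropped to 11 and 4 with CPI-455, which is 39.2 and 20.4 CPM against 1.24 and 0.793 CPM. Both CPI-455 libraries were far below the vehicle libraries, of which replicate 1 was the higher by a log2 ratio of 0.93, a gap larger than that of 99.5% of genes tested. The level was 27.7-fold higher with vehicle (log2 fold change -4.79, SE 0.46), the largest fall of the 10 genes. The counts of 11 and 4 allow 0.577 to 2.07 and 0.202 to 1.90 CPM before normalization (95% exact intervals, counting error only), so both CPI-455 levels lay far under the vehicle levels but did not differ from each other beyond counting error. Without single libraries the log2 fold change was between -5.24 and -4.29.

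**Figure D3:**
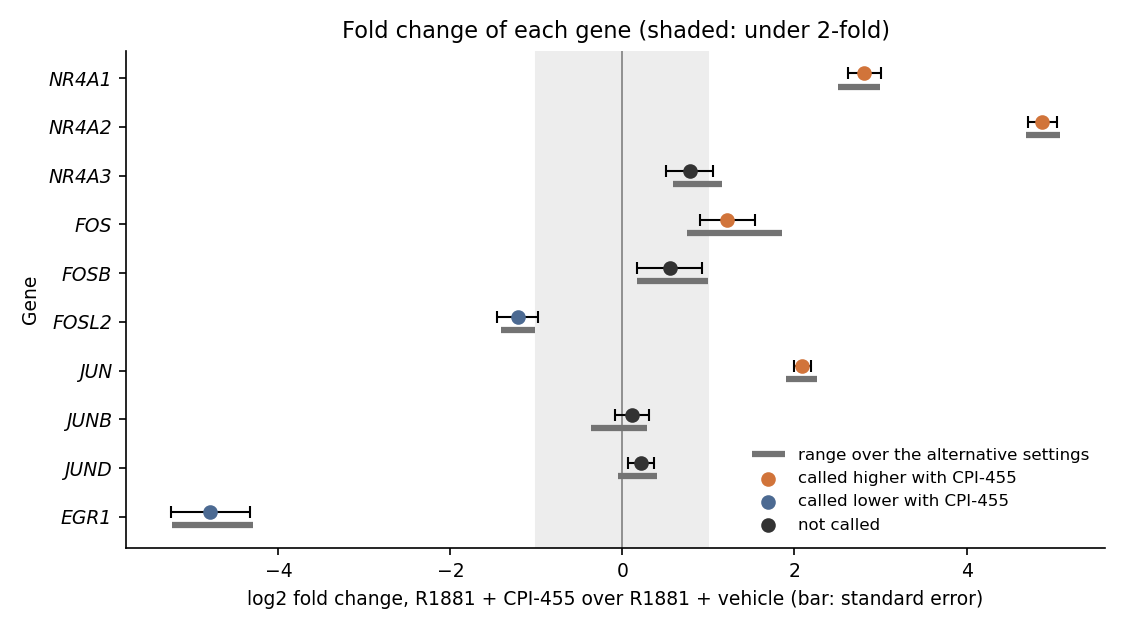
Log2 fold change of each gene, CPI-455 over vehicle (n = 2 each), with the standard error as a thin bar and the range over the alternative settings as a thick grey bar. The shaded band is under 2-fold, and only the ranges of FOS and NR4A3 reach across its edge.

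The order of the genes by level per kilobase was rearranged. With vehicle it was JUN (125 RPKM), JUND (110), EGR1 (9.51), JUNB (8.44), FOS (5.20), FOSL2 (2.31), NR4A1 (1.99), NR4A3 (0.922), NR4A2 (0.756) and FOSB (0.754). Neighbours in this order were separate in both libraries except EGR1 and JUNB, and NR4A2 and FOSB, whose libraries overlapped. With CPI-455 it was JUN (530 RPKM), JUND (128), NR4A2 (22.4), NR4A1 (13.9), FOS (12.2), JUNB (9.14), NR4A3 (1.58), FOSB (1.10), FOSL2 (0.984) and EGR1 (0.324), with an overlap of NR4A1 and FOS alone. EGR1 thereby went from rank 3 to rank 10, and NR4A2 from rank 9 to rank 3, while JUN and JUND stayed first and second. JUN alone supplied 45.9% and 48.5% of the summed RPKM of the 10 genes with vehicle and 72.3% and 75.2% with CPI-455.

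**Figure D4:**
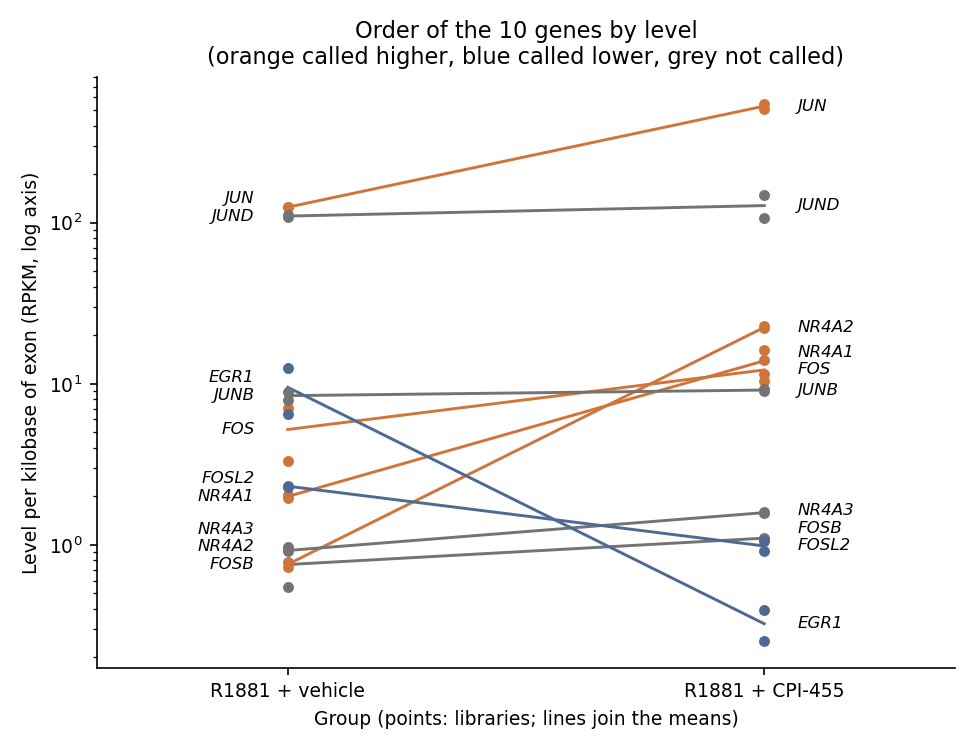
Level per kilobase of exon (RPKM, log axis) of the 10 genes with R1881 + vehicle and R1881 + CPI-455, with points for libraries and lines joining the means of 2. The lines of EGR1 and NR4A2 cross most of the others, from rank 3 to 10 and from rank 9 to 3.

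The spread between the vehicle libraries was uneven among the members. FOS, EGR1 and FOSB were all higher in vehicle replicate 1 than in replicate 2, by log2 ratios of 1.06, 0.93 and 0.73, each a gap wider than that of at least 98.1% of genes tested. For the other 7 genes the ratio was between -0.09 and 0.15. With CPI-455 the log2 ratio of replicate 1 to replicate 2 was 0.50 for NR4A1, 0.46 for JUND, 0.43 for EGR1 and -0.43 for FOS, so no common direction was seen there. What set FOS, EGR1 and FOSB apart in vehicle replicate 1 was not tested.

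By their medians, the members were compact genes. Their median span was 5506 bases against 25720 for all genes tested. They had a median of 3 exon blocks against 9 and an exon GC content of 56.0% against 48.5%. Median exon length was closer, at 3754 and 4292 bases. The NR4A genes were not compact in this way, with 11, 10 and 9 exon blocks for NR4A1, NR4A2 and NR4A3. NR4A1 and NR4A3 also spanned more bases than the median gene tested. After the dependence on exon length and GC content had been smoothed out of each library, NR4A1, NR4A2, FOS and JUN were still called higher and EGR1 and FOSL2 lower.

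The nearest tested protein-coding gene on each side of each member was also compared, at 3505 to 1466080 bases from the member. Of these 20 genes, 1 was called higher, 9 lower and 10 were not called (beside 21.0% higher and 21.3% lower of all genes). The sign of the member was shared by 4 of them. Next to NR4A1, ATG101 was lower (log2 fold change -2.48) and TAMALIN was at 0.38. For NR4A2, GPD2 was lower (-1.87), and KCNJ3, 1466080 bases away, was also called lower. For JUN the values were -0.42 for MYSM1 and -0.36 for FGGY, which lies 512311 bases away, and neither was called. EGR1 lies between ETF1, which was also lower at -1.20, and REEP2, which was at 0.59 and not called.

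Genes with the pattern closest to NR4A2 over the 4 libraries, by Euclidean distance of centred log2 values among 13812 protein-coding genes, were TPM2, H2BC26, H2BC18, HES7 and BTN3A2. TPM2, a tropomyosin gene, stood at 20.1 and 16.7 CPM with vehicle and 492 and 481 CPM with CPI-455. H2BC26 and H2BC18 are histone genes with near-identical copies, so their counts are uncertain. For EGR1 the 5 nearest were the mitochondrially encoded MT-CO1, MT-CO3, MT-ND5, MT-ND6 and MT-ND4L. MT-CO1, a subunit of cytochrome c oxidase, had 2705 and 2145 CPM with vehicle and 148 and 92.4 CPM with CPI-455. Like EGR1 it was higher in vehicle replicate 1. It was also higher in CPI-455 replicate 1, but the EGR1 counts of 11 and 4 with CPI-455 did not differ beyond counting error. With 4 libraries these are descriptions of likeness in this contrast.

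The immediate-early genes outside the member list were also mixed in direction. Of 31 listed, 30 were tested, 9 were called higher (30.0%, beside 21.0% of all genes) and 1 lower (3.33%, beside 21.3%), with a median log2 fold change of 0.41. The count of genes called lower depended on the setting and on single libraries, being 6 without CPI-455 replicate 1, 2 without CPI-455 replicate 2, 0 without vehicle replicate 2 and 5 with library totals in place of TMM. CCN1, which encodes the matricellular protein CYR61, rose from 39.3 and 31.6 CPM to 497 and 542 CPM (log2 fold change 3.87, SE 0.14). KLF6, a zinc finger factor gene, rose by 2.52 on the log2 scale (SE 0.12), GEM, a small GTPase gene, by 1.60 (SE 0.30) and ZFP36, whose product destabilizes AU-rich messages such as that of FOS, by 1.58 (SE 0.26). The single gene called lower was PTGS2, the inducible cyclooxygenase, named after its values were seen. PTGS2 had 1.09 and 1.56 CPM with vehicle and no count in either CPI-455 library, at least 6.16-fold lower against a floor of 3 counts over the group.

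Other members of the same protein families were called in both directions. Among 12 tested bZIP genes of the AP-1 network, 2 were called higher and 2 lower (16.7% each, beside 21.0% and 21.3% of all genes), with a median of -0.25. ATF3, a stress-induced partner of JUN, went from 343 and 347 CPM to 1718 and 1749 CPM (log2 fold change 2.33, SE 0.10), and BATF3 rose by 1.46 on the same scale (SE 0.30). MAFA, which encodes a large MAF protein, fell by 2.23 (SE 0.35) on the log2 scale. Of the EGR relatives, EGR3 had 0.947 and 0.870 CPM with vehicle and 0.337 and 0 CPM with CPI-455 and was not called. EGR2, at 0.805 and 0.366 CPM with vehicle and without a count with CPI-455, was too low to be tested. Pooled over the vehicle libraries it was 2.70-fold above a floor of 3 counts over the CPI-455 group. Vehicle replicate 2 alone lay under the 0.555 CPM that 3 counts represent in CPI-455 replicate 2.

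Partners and corepressors also diverged. NAB1 and NAB2 encode corepressors of EGR proteins, and NAB2 is itself a target of EGR1. NAB2 was at 25.9 and 19.4 CPM with vehicle and 37.6 and 47.2 CPM with CPI-455 (log2 fold change 0.90, SE 0.20), and NAB1 had a value of -0.67 (SE 0.14), both under the 2-fold threshold. The retinoid X receptors are heterodimer partners of NR4A1 and NR4A2. RXRA fell by 2.00 (SE 0.18) on the log2 scale, from 75.6 and 79.5 CPM to 22.4 and 15.7 CPM, and RXRB rose by 1.37 (SE 0.14), from 64.9 and 56.3 CPM to 170 and 143 CPM.

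Of 17 factors and cofactors that act on immediate-early promoters, 1 was called higher and 7 lower (5.88% and 41.2%, beside 21.0% and 21.3% of all genes), with a median of -0.69. MEF2A fell by 2.41 on the log2 scale (SE 0.13), and the acetyltransferase genes EP300 and CREBBP by 1.72 (SE 0.12) and 1.57 (SE 0.13). ELK3, a partner of serum response factor, fell by 1.47 (SE 0.28), and the CREB coactivator CRTC2 rose by 1.17 (SE 0.15). SRF itself was at 143 and 149 CPM with vehicle and 139 and 95.2 CPM with CPI-455, and was not called. Among 25 MAPK cascade genes, which relay the signals to these promoters, 1 was called higher and 4 lower, with a median of -0.53, and both shares lie under the 21.0% and 21.3% of all genes. MAPK11, a p38 kinase gene, rose by 1.80 on the log2 scale (SE 0.23), whereas RPS6KA3, NRAS, MAPK14 and MAP2K3 fell by 1.91, 1.85, 1.18 and 1.03.

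Proteins that bind AU-rich elements govern the decay of many immediate-early messages. Of 7 such genes, HNRNPD, which encodes AUF1, rose by 1.91 on the log2 scale (SE 0.11), from 284 and 276 CPM to 986 and 1116 CPM, KHSRP fell by 1.18 (SE 0.11) and 5 were not called. A single call each way is 14.3% of the list, under the shares of all genes.

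Textbook targets of AP-1 and EGR1 did not move in 1 direction. Of 12 tested, 2 were called higher and 5 lower (16.7% and 41.7%, beside 21.0% and 21.3% of all genes), with a median of -0.41. PLAUR and PLAU, the urokinase receptor and urokinase genes, rose by 2.41 on the log2 scale (SE 0.20) and 2.16 (SE 0.59). CCND1, encoding cyclin D1, fell by 1.59 (SE 0.18), the tissue factor gene F3 by 1.21 (SE 0.38) and IGF2 by 1.09 (SE 0.38). PDGFB, also called lower, was named after its values were seen. It had 1.23 and 1.51 CPM with vehicle and no count with CPI-455, at least 6.38-fold lower.

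**Figure D5:**
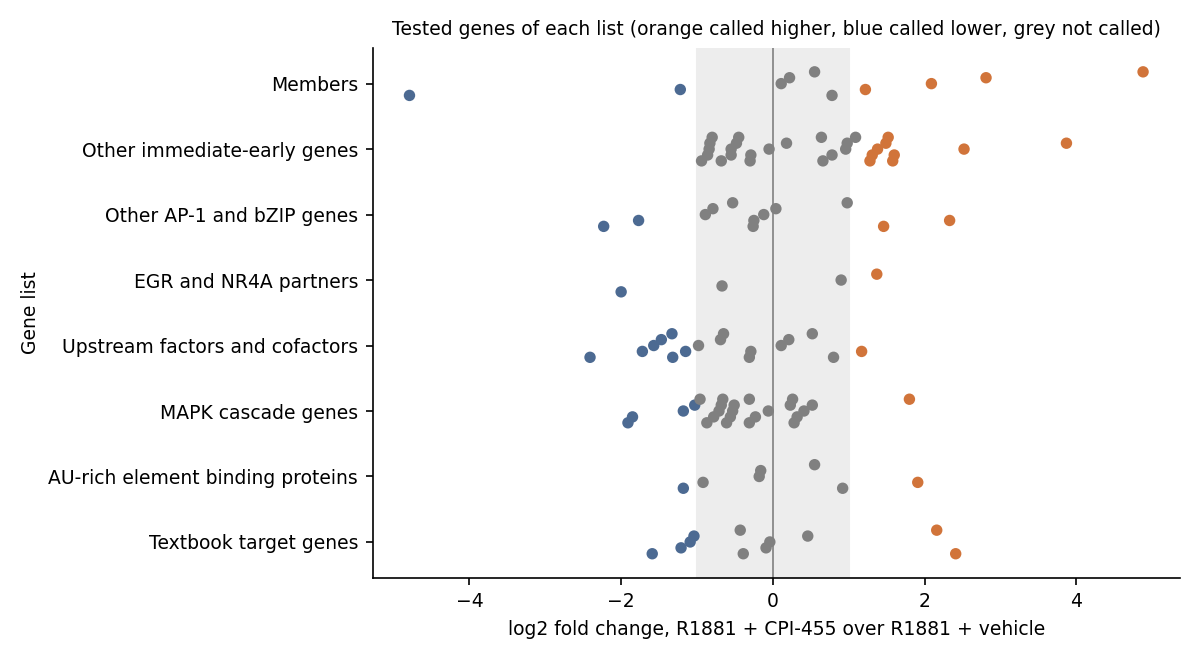
Log2 fold change, CPI-455 over vehicle, of the tested genes of each list, with orange points called higher, blue points called lower and grey points not called, and PTGS2 and PDGFB left out because they had no count with CPI-455. The points of the other immediate-early genes extend to 3.87, and those of the upstream factors and MAPK genes lie mostly left of 0.

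The genes of the enzymes that CPI-455 inhibits and markers of the cells were also examined. KDM5B was lower (log2 fold change -1.07, SE 0.12), and KDM5A and KDM5C, at 0.77 (SE 0.12) and 0.03 (SE 0.12), were not called. Of the 10 luminal prostate markers, 6 were called lower (60.0%, beside 21.3% of all genes), among them FOLH1 (-2.58) and HOXB13 (-2.01), and none was called higher. Of the other 4, KLK2 (0.56) and EPCAM (0.33) had values above 0, and both were named after their values were seen. Basal, stromal and immune markers summed to 5.49 and 4.53 CPM with vehicle and 12.4 and 11.9 CPM with CPI-455. Of these 10 genes only COL1A1, a collagen gene, was high enough to be tested, and it was called higher (log2 fold change 1.00, SE 0.31). The part of these marker shifts in the members' values was not tested. With every library thinned to the depth of the shallowest, NR4A1, NR4A2, FOS and JUN were called higher and EGR1 and FOSL2 lower, and NR4A3 was called higher as well (log2 fold change 1.02).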

How the data were processed

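RNA-seq of 4 LNCaP libraries, 2 with R1881 and vehicle and 2 with R1881 and CPI-455, was analysed from the deposited counts, which are whole numbers of fragments per gene. Per the submitters' processing notes, the file headers and the methods, the authors trimmed reads with Trim Galore, used STAR for alignment to GRCh38, and took fragments over exons with featureCounts 1.5.0-p1 and Ensembl release 83 gene models. Counting ignored strand and left out multi-mapped fragments and those over more than 1 gene. How RNA was selected and whether libraries were stranded are not given in the sources used here.

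Symbols were matched for 56558 of 60675 genes. Counts were normalized by TMM (factors 1.08 and 1.06 for the vehicle libraries and 0.936 for each CPI-455 library), filtered with filterByExpr (minimum 10 counts) and tested without covariates with glmQLFit and glmQLFTest in edgeR 4.0.16 (R 4.3.3). The biological coefficient of variation was 0.126. Genes with a Benjamini-Hochberg false discovery rate below 0.05 and at least a 2-fold difference were called. Normalized CPM are counts per 1000000 fragments of the TMM-scaled library, and RPKM divides them by the exon length in kilobases. Distances and replicate ratios used log2(CPM + 0.5). The procedure was first tested on simulated data.

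The members and gene lists were chosen with earlier results of these data known. Named are all members, from each list up to 4 called genes in each direction with the largest change and a mean of at least 1 CPM, NAB1, NAB2 and the KDM5 genes, the 5 nearest patterns, and chromosomal neighbours. Results for some of these genes are not reported here. SRF, EGR2, EGR3 and some cell markers were named after their values were seen. The 16 alternatives covered normalization, filter, tool (DESeq2 1.42.0), single libraries, a replicate block, length and GC, and depth. Replicates differed by more than sampling noise (chi-square per degree of freedom 5.77 with vehicle and 8.63 with CPI-455), so all 4 were kept as separate samples.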

Additional observations from a re-analysis of the deposited data

How the results depend on the processing

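The calls of NR4A1, NR4A2, JUN and FOSL2 were kept under all 16 alternatives, and that of EGR1 under the 15 in which it was tested. With at least 10 counts required in every library, EGR1 was not tested and 1 member was called lower. FOS was not called without R1881 replicate 2 or without R1881+CPI455 replicate 2, and over the leave-one-out fits its log2 fold change was between 0.75 and 1.85. NR4A3 was called higher with the length and GC trend removed (1.16), the same with a replicate block (1.16), and when thinned (1.02). It was not called in the other 13 alternatives, with a lowest value of 0.59 with library totals only. Of the other immediate-early genes, called lower were 5 with library totals only, 3 with no filter, 0 with at least 10 counts in every library, 0 when thinned, 2 with the trend removed and 2 with the trend removed and a replicate block. Leaving out each library in turn gave 0 to 6, against 1 in the reported fit, with 0 without R1881 replicate 2, 6 without R1881+CPI455 replicate 1 and 2 without R1881+CPI455 replicate 2. A library left alone in its group was assumed to vary like the others. With the replicate block 4 members were called higher and 2 lower, as without it. The replicate numbers did not show pairing, since the deviations of same-numbered libraries correlated at 0.05 across genes. Upper-quartile normalization moved the median log2 fold change of all genes by 0.18, library totals by -0.19, no filter by -0.16, the trend by 0.12 and thinning by 0.11. The lowest counts among the members were the 11 and 4 of EGR1 with CPI-455.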
